A study of Homo sapiens with 2 samples.

Results

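HIST1H1B, the gene for a linker histone, was 1 of 1415 genes in the table of RNA levels from A549 cells with and without NAT10. It was taken by its name in the table and was set beside the 5 other listed genes whose names begin with HIST. HIST1H1B was selected on its RPKM in the control and knockout libraries, so these levels are a description and carry no test. A549 is an established human line of lung adenocarcinoma. The control library came from the unmodified line. The NAT10 knockout library came from A549 cells edited with CRISPR/Cas9 and a pair of guides, grown up from a single cell, so that it represents 1 clone. NAT10 is the acetyltransferase that writes N4-acetylcytidine on RNA, and the study asked which transcripts differ once it is lost. There was 1 library per group, with effective sizes of 6077933 (control) and 5474964 (knockout) reads, and no difference below has a replicate check.

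Linker histones sit on the DNA where it enters and leaves the nucleosome and compact chromatin. HIST1H1B belongs to the replication-dependent class, whose genes lie in clusters, have no introns and are transcribed mainly in S phase. Messages of this class end in a stem-loop in place of a poly(A) tail.

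HIST1H1B (ENSG00000184357) lies on chromosome 6, at chr6:27866849-27867529 on GRCh38, minus strand, in the large histone cluster. GENCODE release 29 gives it a single exon of 681 bases that holds the coding sequence and no intron. The RefSeq transcript spans 797 bases, with 59 bases more at the start and 57 bases more at the end. The deposited level gave a whole number of reads with the shorter model and 717.4 reads with the longer one, so the length used for the level was that of the shorter model. HIST1H1B overlapped no other annotated gene on either strand. Of the 632 windows of 50 bases in its transcript, 632 occurred in no transcript of another gene in GENCODE release 29.

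The upstream sequences are shown to compare the H1 box between a core histone gene and linker histone genes. The CCAAT and TATA boxes, which are not limited to linker histone genes, are marked as well. They are the 250 bases before the RefSeq start on GRCh38.p14, 5′ to 3′ on the strand of the gene. Capitals mark matches on either strand to elements of histone promoters. The H1 box, which is typical of linker histone genes, was searched as AAACACA. The CCAAT box was searched by the letters of its name. The TATA box was searched as TATATAA and in a second form as TATAAA, and the forms overlap where both occur. HIST1H1T is the other linker histone gene among the listed genes with HIST names, and HIST1H4K, which encodes core histone H4, is the nearest listed histone gene. Their windows are chr6:27867589-27867838, chr6:26108136-26108385 and chr6:27831561-27831810, all on the minus strand.
HIST1H1B: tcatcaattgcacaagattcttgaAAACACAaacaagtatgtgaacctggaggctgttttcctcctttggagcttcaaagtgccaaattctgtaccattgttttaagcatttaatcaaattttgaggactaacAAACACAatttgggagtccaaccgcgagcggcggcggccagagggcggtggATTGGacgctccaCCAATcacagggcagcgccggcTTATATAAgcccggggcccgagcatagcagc
HIST1H1T: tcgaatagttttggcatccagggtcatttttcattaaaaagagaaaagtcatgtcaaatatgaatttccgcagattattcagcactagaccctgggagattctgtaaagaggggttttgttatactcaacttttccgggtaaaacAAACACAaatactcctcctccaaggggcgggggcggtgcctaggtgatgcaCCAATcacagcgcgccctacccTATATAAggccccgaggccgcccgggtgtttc
HIST1H4K: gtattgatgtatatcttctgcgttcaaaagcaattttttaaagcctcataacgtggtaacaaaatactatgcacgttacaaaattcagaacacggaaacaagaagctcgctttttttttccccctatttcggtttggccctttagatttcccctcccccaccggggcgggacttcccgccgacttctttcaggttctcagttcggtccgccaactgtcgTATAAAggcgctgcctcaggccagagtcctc

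HIST1H1B held the H1 box at 226 and at 117 bases before the start, counted to the first base of the match. It held the CCAAT box at 53 bases on the strand of the gene and at 66 bases on the other strand, and the TATA box at 30 bases. HIST1H1T held the same elements at 105, 54 and 32 bases. HIST1H4K held the TATA box at 31 bases and no match to the H1 box or the CCAAT box. A window with at least 1 match to each of the 3 elements was found in 5 of the 7 linker histone genes with an entry, and in 0.347% of the 35116 windows of the promoter table. By element, the H1 box was in 4.82% of the windows, the CCAAT box in 32.0%, TATATAA in 2.42% and TATAAA in 10.7%. HIST1H1C held the H1 box and the CCAAT box but none of the TATA letters searched, and H1FX held only TATAAA. Entries were found for 9 of the 9 histone genes looked up. A match is a description of the letters and shows no binding.

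**Figure D1:**
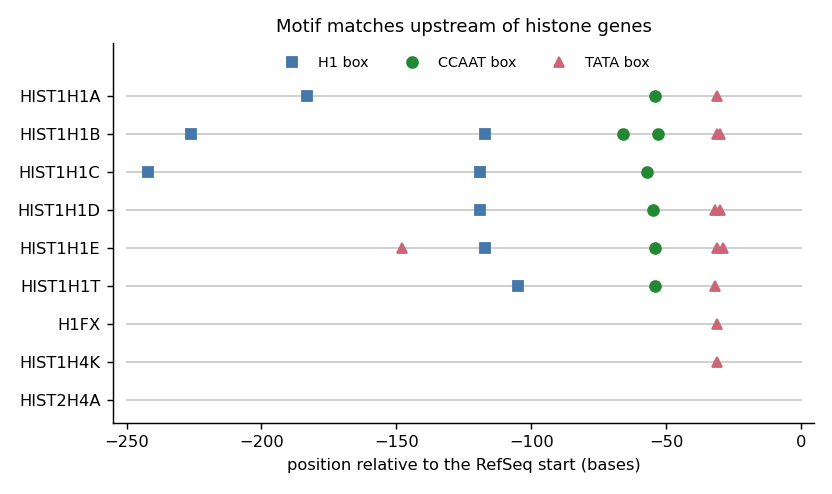
Positions of matches to the H1 box (squares), the CCAAT box (circles) and the TATA box (triangles) in the 250 bases upstream of 9 histone genes. The horizontal axis is the distance in bases from the RefSeq start, and each row is 1 gene. In HIST1H1B the CCAAT box sits at 53 bases and the TATA box at 30 bases, close to where they sit in HIST1H1T.

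HIST1H1B had a level of 148.1 RPKM (reads per kilobase of exon and per library size) in the control library and was listed at 0 RPKM in the NAT10 knockout library. These levels stood for 613 control reads and 0 knockout reads. The gene was thus among the most abundant of the table in the control, with the highest level of the 798 protein-coding genes and the fourth of all 1415 genes, and was without a read in the knockout clone. At an unchanged level the knockout library would have held 552 reads of HIST1H1B. A limit of 3 reads, which a count of 0 allows, is 0.805 RPKM for this gene in the knockout library. Against that limit HIST1H1B was at least 184-fold lower in the knockout, with the control reads taken as exact. With the counting error of both libraries allowed for, the 95% Clopper-Pearson interval was open below and its limit nearest to no change was a log2 ratio of -7.22, or 149-fold lower. On the scale of log2(RPKM + 1) the difference of knockout minus control was -7.22 as well, and no listed gene fell further on that scale. Of the listed genes, 19.4% were lower by more than 1 on that scale. Intervals and limits cover counting error only. RNA was taken from whole cultures, so fewer cells with the transcript and less transcript per cell cannot be told apart. NAT10 itself was not analysed here, so the direction rests on the labels of the libraries. Of 7 epithelial markers only CDH1, the gene for E-cadherin, was in the table, with 331 control reads and 127 knockout reads.

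**Figure D2:**
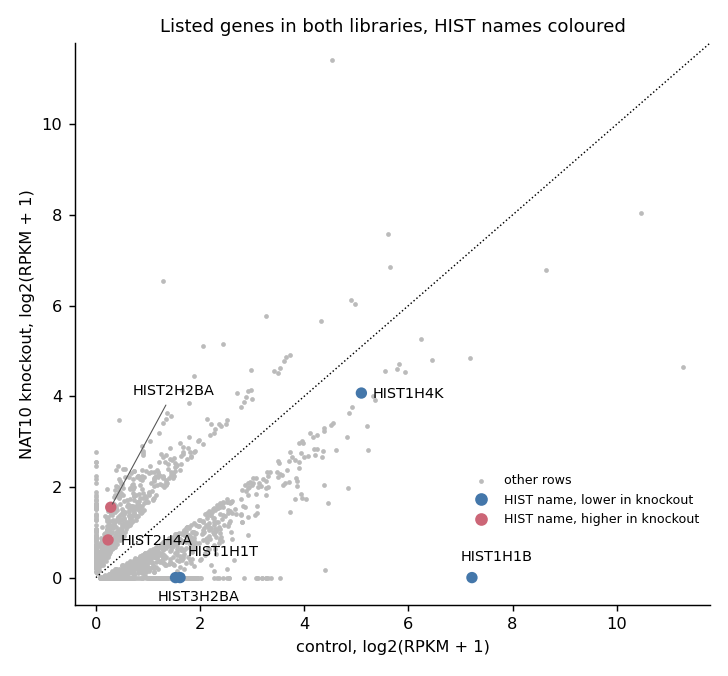
Level of each of the 1415 listed genes in the control library (horizontal) and the NAT10 knockout library (vertical), as log2(RPKM + 1), with 1 point per gene and the dotted line at equal levels. The genes with HIST names are coloured. HIST1H1B lies on the floor of the plot, far to the right of the other genes at 0 RPKM in the knockout.

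A level of 0 in the knockout was not rare in the table, but it was mostly reached from a few reads. In all, 182 of the 1415 genes were at 0 RPKM in the knockout, or 12.9%, and 93 were at 0 RPKM in the control. For the 181 other genes at 0 in the knockout the median control level was 0.724 RPKM. Read numbers could be worked out for 175 of them, and ran from 5 to 69 control reads with a median of 6. HIST1H1B, with 613 control reads, had 8.88 times as many as the next gene, TCEAL8. TCEAL8 had 69 control reads and a level of 9.29 RPKM. MYOM3 followed with 67 control reads and NTS, the gene for neurotensin, with 58. By control RPKM the next were RPL41P5, at 10.5 RPKM, and TCEAL8, then AC020891.4, a Y RNA gene on chromosome 19 and RNY4P17, which had 8.85, 8.66 and 8.57 RPKM. Each of these but TCEAL8 rested on 5 control reads, spread over at most 96 bases. Of the 10 listed genes with a control level of 50 RPKM or more, 1 was at 0 in the knockout, and this was HIST1H1B. In the other direction, no gene at 0 in the control had more than 20 knockout reads.

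**Figure D3:**
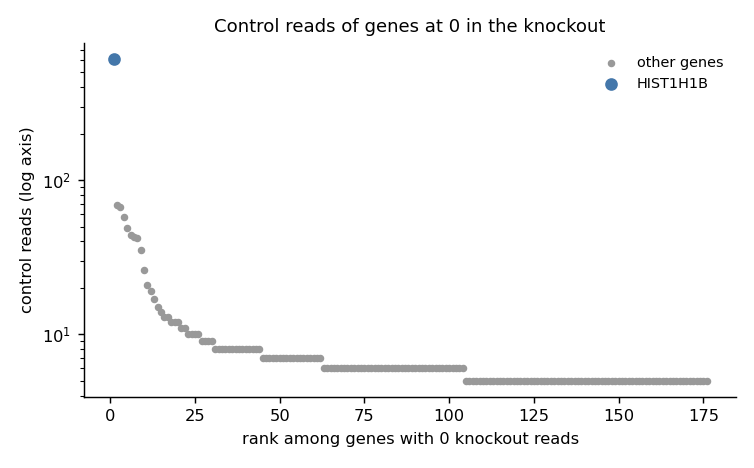
Control reads (log axis) of the genes with 0 reads in the NAT10 knockout library, ranked from the highest. Each point is 1 gene. HIST1H1B, at 613 reads, stands above the other genes, which lie between 5 and 69 reads.

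The genes nearest to HIST1H1B in control level were lower in the knockout too, but kept part of their level. Of all listed genes 57% were lower, and a choice by high control level favours lower ones. CXCL5, the chemokine gene that the study followed, had 143.7 RPKM in the control and 27.6 RPKM in the knockout. CD24, which encodes a surface glycoprotein, had 86.6 and 26.7 RPKM. PTP4A1, a phosphatase gene, had 74.4 and 37.4 RPKM. MIR6087 had 60.4 and 22.4 RPKM, from 18 and 6 reads. TNS4, the gene for a tensin, had 55.7 and 25.4 RPKM. The 5 genes whose pair of levels was nearest to that of HIST1H1B, by Euclidean distance over the 2 libraries in log2(RPKM + 1), were CEACAM6, CXCL1, SNORD62B, TGM2 and DLEU2_4. The nearest of them, CEACAM6, which encodes an adhesion molecule, was at a distance of 2.82 log2 units. CEACAM6 had 20.2 RPKM in the control and 0.120 RPKM in the knockout, from 374 and 2 reads. The distances of the others ran from 3.09 to 3.50 log2 units.

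The other linker histone gene with such a name in the table, HIST1H1T (ENSG00000187475, chr6:26107419-26108136, minus strand), encodes the linker histone of the testis. It had 2.06 RPKM in the control and 0 RPKM in the knockout, so that HIST1H1B stood 71.8 times above it in control RPKM. HIST1H1T had 9 control reads and 0 knockout reads, which is at least 2.70-fold lower against the limit of 3 reads, with an interval that ended at -0.83 on the log2 scale. Both genes were thus without a read in the knockout, HIST1H1B from many control reads and HIST1H1T from few. The linker histone genes HIST1H1A, HIST1H1C, HIST1H1D, HIST1H1E and H1FX were not analysed here. These values cover only the listed genes with HIST names, and nothing can be read from them about linker histone RNA as a whole.

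The core histones and histone pseudogenes in the table had smaller differences on the log2(RPKM + 1) scale. All but HIST1H4K had at most 8 reads per library, too few to bound the size of a change closely. HIST1H4K (ENSG00000273542, chr6:27831216-27831527, minus strand) had 33.2 RPKM in the control and 15.8 RPKM in the knockout, from 63 and 27 reads. It was 2.10-fold lower, with an interval of the log2 ratio from -1.78 to -0.40. HIST1H1B thus stood 4.46 times above HIST1H4K in control RPKM, while HIST1H4K kept reads in the knockout. HIST2H4A (ENSG00000270882), which also encodes histone H4, had 0.175 RPKM in the control and 0.779 RPKM in the knockout. These were 2 and 8 reads, and the interval, from -0.17 to 5.42, included no change. Of the H2B pseudogenes, HIST2H2BA had 1 control read and 8 knockout reads, and HIST3H2BA had 6 and 0. The interval of the log2 ratio ran from 0.25 to 8.62 for HIST2H2BA. For HIST3H2BA it was open below and ended at -0.08.

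**Figure D4:**
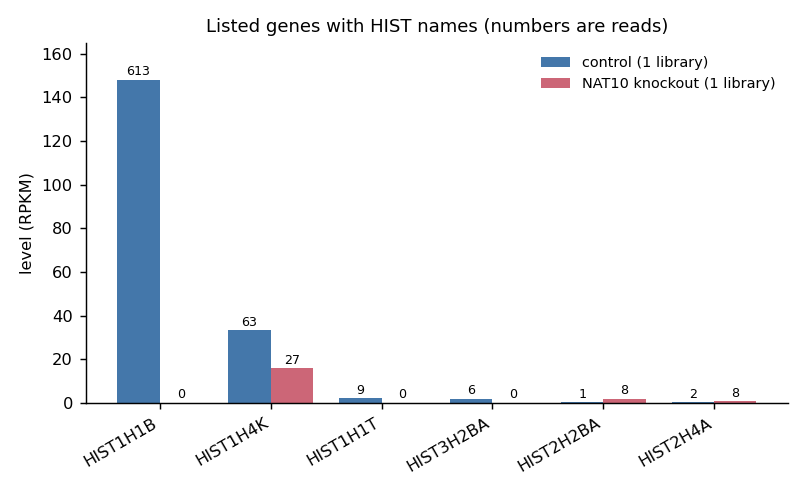
Level in RPKM of the 6 listed genes with HIST names in the control library (blue) and the NAT10 knockout library (red), with the number of reads above each bar. Each bar is 1 library and has no error bar. HIST1H1B goes from 148.1 RPKM to 0, and HIST1H4K goes from 33.2 to 15.8 RPKM.

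By name, 6 of the 90 annotated genes that begin with HIST were in the table, 4 lower and 2 higher, beside 57% lower among all listed genes. Among the replication-dependent histones 4 of 70 were listed. HIST1H1B, HIST1H1T and HIST1H4K were lower and HIST2H4A was higher. The median of these 4 was -1.32 on the log2(RPKM + 1) scale, against -0.32 over all listed genes. It includes HIST1H1B, which was selected on its levels, so it is no measure of the class. HIST1H1T was at -1.61, HIST1H4K at -1.03 and HIST2H4A at 0.60. From the reads, with a floor of 3 reads, the median log2 ratio of the 4 was -1.25. The smallest ratio in the table was 0.99 on the log2 scale, which means that listed genes differ about 2-fold or more. The other 84 genes with such names were not analysed here, and the counts do not cover histone genes with names of another form, so nothing is read from them about histone genes in general. The listed genes with HIST names differed among themselves, from no read in the knockout for HIST1H1B to more reads there for HIST2H2BA.

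The reads behind these genes are not equally certain. The transcripts of HIST1H1B and HIST1H1T shared no window of 50 bases with another gene. HIST1H4K had 0 of 263 windows of its own, since each also occurs in HIST1H4J, and HIST2H4A had 0 of 1498, since each also occurs in HIST2H4B. HIST2H2BA had 26.6% and HIST3H2BA had 69.9% of windows of their own. Values of HIST1H4K, HIST2H4A and the pseudogenes are therefore uncertain, as the handling of reads with several positions is not given in the sources used here. HIST2H4A also overlaps HIST2H3C on the other strand, and HIST2H2BA overlaps AC244453.3 on the same strand. Over the 681 bases of HIST1H1B the most similar linker histone transcript was HIST1H1E, with 76.2% identical bases. HIST1H1D had 74.2%, HIST1H1C 72.8%, HIST1H1A 67.5%, HIST1H1T 62.1% and H1FX 59.0%.

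The neighbours of HIST1H1B were looked at for a change over a wider stretch of chromosome 6. Within 1 Mb on either side, 4 of the 104 other annotated genes were in the table, among them 3 of the 42 protein-coding genes and 1 of the 20 protein-coding HIST genes. The histone genes that flank HIST1H1B were not analysed here. They are HIST1H2BN at 1.05 kb and HIST1H2AL at 1.10 kb on one side, and HIST1H3I at 4.38 kb on the other. HIST1H4K, which starts 35.6 kb away, was 2.10-fold lower as given above. ZNF391, a zinc finger gene, had 0.477 RPKM in the control and 0.0756 RPKM in the knockout, from 14 and 2 reads. ZNF165, another zinc finger gene, had 1.25 and 0.347 RPKM, from 16 and 4 reads. TOB2P1, a pseudogene, had 0.166 and 1.10 RPKM, from 1 and 6 reads. Each of these neighbours had reads in the knockout, at most 27. Those 27 were of HIST1H4K, whose windows all occur in HIST1H4J too, so their place is uncertain. The other neighbours had at most 6 knockout reads. A change over the wider stretch was not tested.

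**Figure D5:**
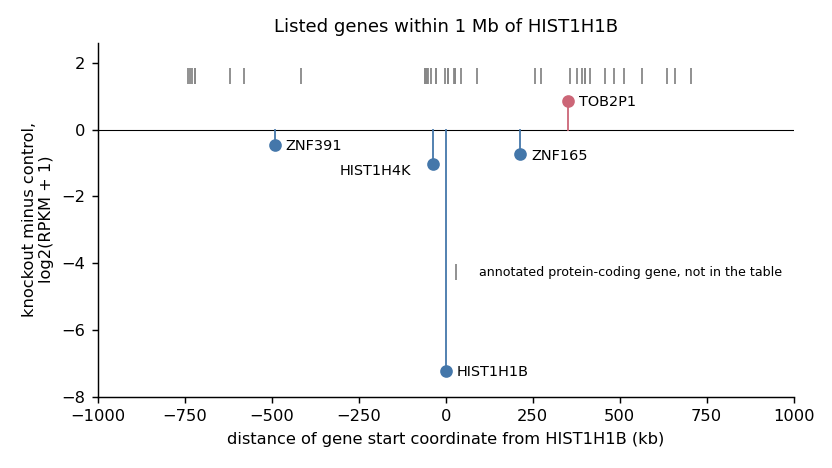
Difference of knockout minus control on the log2(RPKM + 1) scale (vertical) for the listed genes within 1 Mb of HIST1H1B, against the distance of their start coordinates in kb (horizontal). Grey ticks are annotated protein-coding genes that are not in the table. HIST1H1B is at -7.22, and its 4 listed neighbours lie between -1.03 and 0.85.

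HIST1H1B shares with other histone genes that it has no intron. In all, 34 listed protein-coding genes had 1 exon in each annotated transcript, and 21 of them were lower and 13 higher in the knockout. The lower ones were 61.8% of the 34, against 61.4% of 762 genes with introns. Of the 34, 4 were at 0 in the knockout, beside 182 of all 1415 listed genes, or 12.9%. HIST1H1B, which was selected on its levels, and HIST1H1T were among the 4.

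N4-acetylcytidine is often described, though not always found, at repeats of a C followed by any pair of bases, so the transcript of HIST1H1B was searched for at least 4 such triplets in a row (CNNCNNCNNCNN, on the strand of the transcript, overlaps counted). HIST1H1B held 6 matches in 4 separate runs, or 8.81 per kb. The longest run had 6 triplets and lay near the start of the coding sequence, at chr6:27867487-27867504 on GRCh38, minus strand. It is shown with the repeated C in capitals, as the place where the pattern is longest.
HIST1H1B, longest run: CagCcaCccCagCgcCgg

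This density was ordinary for the table. The median of 795 listed protein-coding genes was 8.93 per kb, 403 of them had as many as HIST1H1B or more, and 99.1% had at least 1 match. Among the linker histones searched, HIST1H1T had 5.57 matches per kb and HIST1H1D had 6.01. HIST1H1C had 17.1, HIST1H1E 18.6, HIST1H1A 21.6 and H1FX 33.2. No ac4C level was measured in these libraries.

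The other genes of the histone pathway were looked up in lists. The share of all annotated genes that the table holds was not worked out. Nothing is therefore read from how many genes of a list were in the table. Of 33 genes for transcription and end processing of histone messages, 47 genes of DNA replication and S phase and 25 genes of mitosis and proliferation, none was in the table, so their levels were not analysed here. Of 32 histone chaperones and partners of linker histones 1 was listed. It was HMGN5, which encodes a nucleosome-binding protein that counteracts linker histones. HMGN5 had 1.43 RPKM in the control and 0.378 RPKM in the knockout, from 21 and 5 reads, with an interval of the log2 ratio from -3.68 to -0.47. From a chosen list of 33 other RNAs without a poly(A) tail, 3 were in the table, in both directions. RNU1-4, a U1 small nuclear RNA gene, had 22.1 RPKM in the control and 2729 RPKM in the knockout. SNORD3B-2, a U3 small nucleolar RNA gene, had 1.46 and 91.7 RPKM. RNU6-1, a U6 small nuclear RNA gene, had 12.3 and 1.71 RPKM, from 8 and 1 reads. Such RNAs come from families of near-identical genes, so their values are uncertain. Outside that list, the genes above HIST1H1B in control RPKM were RN7SL5P and the mitochondrial tRNA genes MT-TE and MT-TN, all lower in the knockout. RN7SL5P went from 4834 to 42 reads, a difference of -6.64 on the log2(RPKM + 1) scale. MT-TE went from 594 to 100 reads and MT-TN from 178 to 44. A fall of nearly that size was thus not limited to HIST1H1B. The part that capture of RNA without a poly(A) tail has in the level of HIST1H1B was not tested.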

How the data were processed

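Total RNA of control A549 cells and of the NAT10 knockout clone was sequenced after SMARTer mRNA-seq library preparation (per the labels), 1 library per group. The genome build is hg38 per the submitters' processing notes. The aligner, annotation, counting tool and strand handling are not given in the sources used here. The authors deposited RPKM for each gene in each library, in a table of 1415 genes that was limited to genes with a difference. Their columns of log2 fold change, p-value and adjusted p-value were not used. Other genes were not analysed here, and the result of 1 gene is not reported here.

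Differences were taken on the log2(RPKM + 1) scale, with no test. RPKM times the exon length in GENCODE release 29 gave whole reads (within 0.01) in both libraries for 1342 of 1408 genes with a length (95.3%). The effective library sizes were 6077933 reads for the control and 5474964 for the knockout. Folds used a floor of 3 reads per library. Intervals are 95% Clopper-Pearson intervals of the share of reads, turned into a ratio. They use the same libraries by which genes came to be listed. An interval that leaves out no change is therefore no independent test. The steps were tested on simulated data. HIST1H1B and the lists were chosen with earlier results of these data known. Genes were named by rule: listed genes with HIST names and members of short lists, the 5 nearest in pattern, in control level and among genes at 0, and neighbours within 1 Mb. MYOM3 and NTS were chosen after their values were seen. Sequences are from GENCODE and from RefSeq. Python 3.11.15, pandas 2.3.3, scipy 1.17.1 and biopython 1.88 were used.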

Additional observations from a re-analysis of the deposited data

How the results depend on the processing

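The level of HIST1H1B was lower in the knockout under each setting tried. Its difference of -7.22 on the log2(RPKM + 1) scale was -10.53 with a pseudocount of 0.1 RPKM, -4.94 with one of 5 RPKM and -7.52 from recovered reads with a floor of 3 reads. The size is set by what stands in for 0, by construction. A pseudocount of 0.1 RPKM took the 274 lower genes beyond 1 in size to 719 and the 189 higher ones to 556, and one of 5 RPKM took them to 45 and 21. With a mean of at least 1 RPKM they were 226 and 160. Of the 182 genes at 0 in the knockout 86 had at least 1 RPKM in the control. Of the 4 listed replication-dependent histones 3 were lower by more than 1, beside 19.4% of all listed genes. With a pseudocount of 5 RPKM 1 was, HIST1H1B. Both counts include HIST1H1B, which was selected on its levels. No paired analysis was possible because each group had 1 library. Depth limits the statement to less than 0.805 RPKM in the knockout.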
